A study of Meriones unguiculatus with 18 samples.

Results

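The livers of male Mongolian gerbils (Meriones unguiculatus) fed a high-fat diet (HFD) for 16 weeks were compared with those of male gerbils fed a normal diet (ND) for the same time, 3 RNA-seq libraries each. These are 6 of the 18 libraries of the series; the 12 libraries of 4 and 8 weeks were left out. In the HFD, cholesterol (2%), No. 3 bile salt (0.5%), lard bile (7%) and egg yolk powder (10%) were added to ordinary feed (80.5%), whereas ND animals had ordinary feed alone. All 6 libraries carry the tag Z:ZCAL, and no age is stated. One text of the labels speaks of 36 gerbils with 6 per group and the other of 18 with 3 per group, and neither says whether a library holds 1 liver or a pool, so the spread between libraries may not be that between animals. Both a light/dark cycle and continuous light are named for the housing. Poly(A) RNA was sequenced and assembled without a genome into unigenes, 1 transcript per assembled cluster. Of 13172 unigenes, the 8976 with a mean value of at least 1 over the 6 libraries were tested, and the 3025 of these with a gene name (2699 different names) are described.

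Most liver RNA comes from hepatocytes, which oxidise drugs and alcohol, run the urea cycle, store and release glucose, make cholesterol and bile acids and secrete plasma proteins. Stellate cells lie beside the blood channels of the liver; when activated they become myofibroblasts that carry desmin and contractile proteins and lay down collagen, the process called fibrosis. Resident macrophages (Kupffer cells) and macrophages recruited from the blood take up lipid and dead cells. In fatty liver, recruited macrophages are known for GPNMB, CD68 and a large lysosome compartment. Cells of the bile duct multiply in damaged liver and share genes with liver progenitor cells.

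The deposited values are normalized levels that were brought to 1 common set of sorted values over the 18 libraries: every library summed to 158000 and had 28800 as its highest value. A value therefore reflects the rank of a unigene within its library, the sequencing depth is unknown, and levels are compared between diets and not between genes. A unigene at the lowest value of a library is called not detected there. Detected unigenes numbered 11119, 11048 and 11004 in the HFD libraries and 8677, 8937 and 8887 in the ND libraries. Unigenes are not independent replicates; across them, Pearson's r was 0.813 to 0.858 between HFD libraries, 0.839 to 0.847 between ND libraries and 0.524 to 0.615 between diets. The 3 HFD libraries shared 1239 unigenes that no ND library had, HFD 2 and 3 shared 473 detected in no other library, and the 3 ND libraries shared 355 that no HFD library had. A name found in the gerbil annotation was held by 85.7% of the named unigenes detected in all 6 libraries, 88.6% of those in the 3 HFD libraries alone, 55.6% of those in HFD 2 and 3 alone and 28.4% of those in ND alone. Diet and these detection sets cannot be told apart, so each gene named below was detected in all 6 libraries unless its detection is given. Of the hepatocyte markers, ALB (serum albumin), Apob (apolipoprotein B), Ambp and Cps1 were in the table, and their summed values were 6030 to 29400 in HFD and 29600 to 29800 in ND libraries. Names follow the species matched by the authors, so Cyp2a3 or vim1 names the best match.

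HFD and ND livers differed in a large share of the genes that could be tested. By limma with Benjamini-Hochberg adjustment over all 8976 unigenes, 3417 were called at an adjusted p under 0.05 (38.1%), 1607 higher on HFD (17.9%) and 1810 lower (20.2%). Among the 3025 named unigenes 1386 were called (45.8%), 730 higher (24.1%) and 656 lower (21.7%). Names outside the gerbil annotation were carried by 74 of the rises and 210 of the falls. After median-ratio rescaling, which moved the median log2 fold change of all unigenes from -0.04 to 0.14, the named split was 952 higher and 525 lower. With 1 unigene per gene name, as used for the gene lists below, 1258 of 2699 were called (46.6%), 25.8% higher and 20.9% lower, with a median log2 fold change of 0.15; among the 2083 of these detected in all 6 libraries 47.2% were called, 26.7% higher and 20.5% lower. Fold changes are of value + 1, on HFD over ND, and understate the change of low genes; those of single genes detected on 1 diet alone are not given. Such unigenes passed the filter through that diet, and 576 of 670 in the HFD libraries alone and 300 of 302 in the ND libraries alone were called, so their calls are descriptions. Where 1 number in brackets follows a gene name it is its log2 fold change, and medians are of log2 fold changes. HFD and ND values did not overlap in 4653 unigenes (51.8%), and in 1383 of the 1386 named calls. In bulk liver, more cells of a type and more RNA per cell cannot be told apart, and the normalization to ranks ties each gene's value to those of the others.

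**Figure D1:**
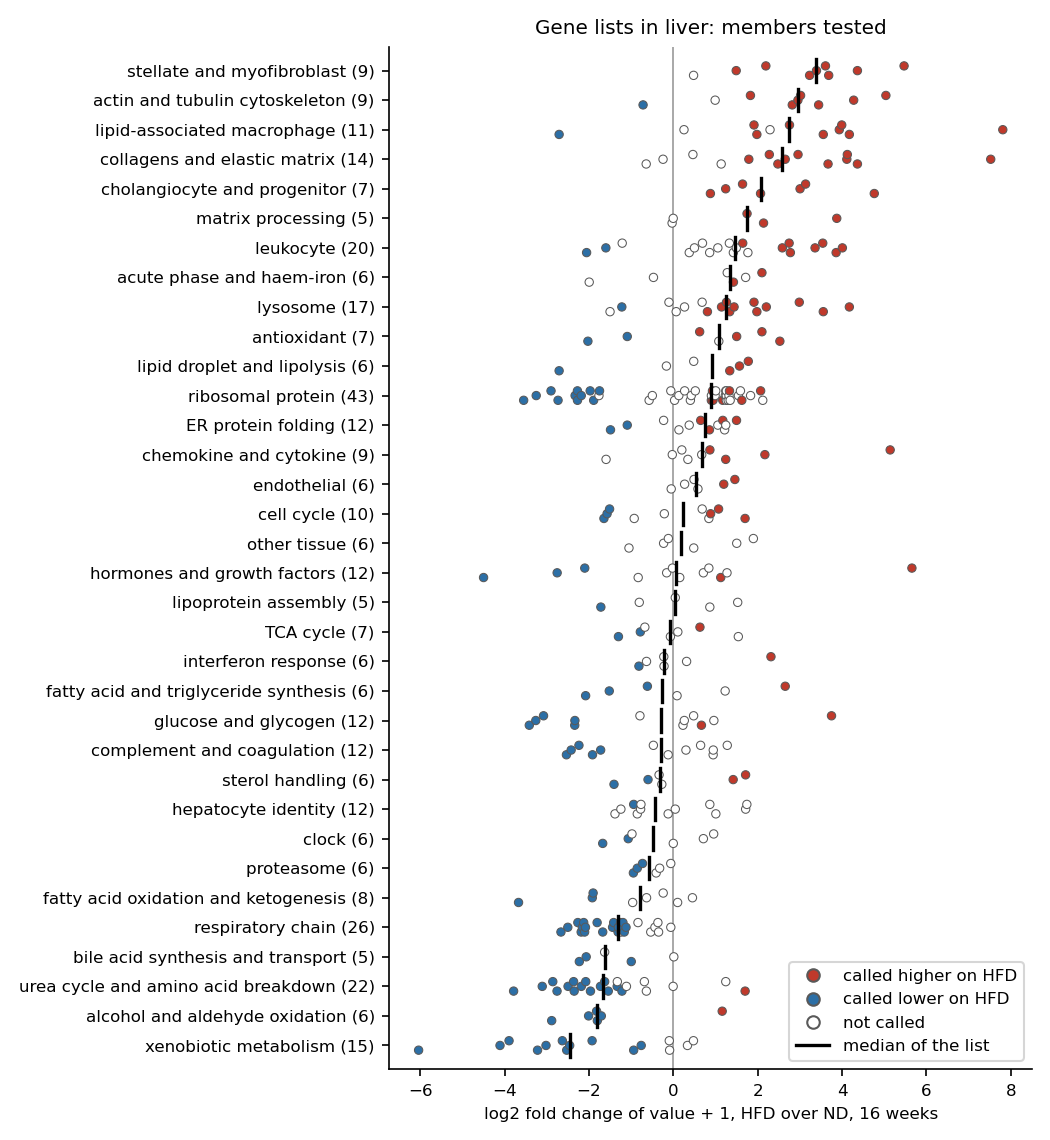
Log2 fold change (HFD over ND, value + 1, x axis) of every tested member of the gene lists with at least 5 members, 1 row per list with its number of members; filled points passed the test, open points did not, and the bar is the list's median. Stellate, cytoskeleton, lipid-associated macrophage and collagen lists lie highest, with medians of 3.39, 2.95, 2.75 and 2.56, and xenobiotic metabolism lowest, with -2.46.

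Genes of fibrous matrix were higher on HFD, and several were near the lowest ranks of the ND libraries. The type I collagen gene Col1a1 (TRINITY_DN32772_c0_g1) had values of 226, 572 and 263 in the HFD libraries and 1.14, 0.591 and 0.626 in the ND libraries (log2 fold change 7.52, SE 0.35, adjusted p = 0.000131 by limma). All HFD libraries lay far above all ND libraries, and the highest value was that of HFD 2. Eln, the gene of elastin, had 33.4, 28.6 and 29.8 in the HFD libraries and 0.789, 0.918 and 0.725 in the ND libraries (log2 fold change 4.12, SE 0.17, adjusted p = 0.000122 by limma). Its HFD libraries were close to each other. Of 14 genes of collagens and elastic matrix in the test, 10 rose and none fell, with a median log2 fold change of 2.56. Those that rose and were detected in all 6 libraries included the collagen chains Col6a1 (4.11), Col5a2 (3.67), Col16a1 (2.95) and Col15a1 (2.27), the proteoglycan Lum (4.36) and the matricellular protein Thbs2 (2.65). Lum had 8.03, 131 and 28.7 in the HFD libraries and 0.543, 0.579 and 0.674 in the ND libraries, so HFD 1 was well below the other HFD libraries although still above ND. Ltbp4, which holds latent TGF-beta in the matrix, was detected in the HFD libraries alone (1.77, 8.26 and 6.86). The 4 members that did not pass had log2 fold changes of -0.64 to 1.13. 

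Proteins that fold and trim collagen gave a mixed picture. Serpinh1 (TRINITY_DN28407_c0_g2), the collagen chaperone HSP47, had 87.5, 243 and 104 in the HFD libraries and 8.99, 7.85 and 7.19 in the ND libraries (log2 fold change 3.87, SE 0.37, adjusted p = 0.000897 by limma). Fkbp10, a folding enzyme of the collagen pathway, and Timp3, an inhibitor of matrix proteases, rose by 2.14 and 1.75 on the log2 scale. With Serpinh1 they were 3 rises among 5 genes, and the 2 tested collagen hydroxylases did not pass. Fndc1, a fibronectin-type protein, had 37.2, 54.1 and 27.3 in the HFD libraries and 0.541, 0.475 and 0.519 in the ND libraries, 1 of the 15 largest rises. Of the 30 genes of the profibrotic list only 2 could be tested, and both rose. They were Sfrp1, a secreted Wnt antagonist, and Cyr61, a matricellular growth regulator. Sfrp1 had 103, 269.7 and 126 in the HFD libraries and 1.08, 2.01 and 1.89 in the ND libraries (log2 fold change 5.87, SE 0.36, adjusted p = 0.000265 by limma), and Cyr61 rose by 3.79 on the log2 scale.

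**Figure D2:**
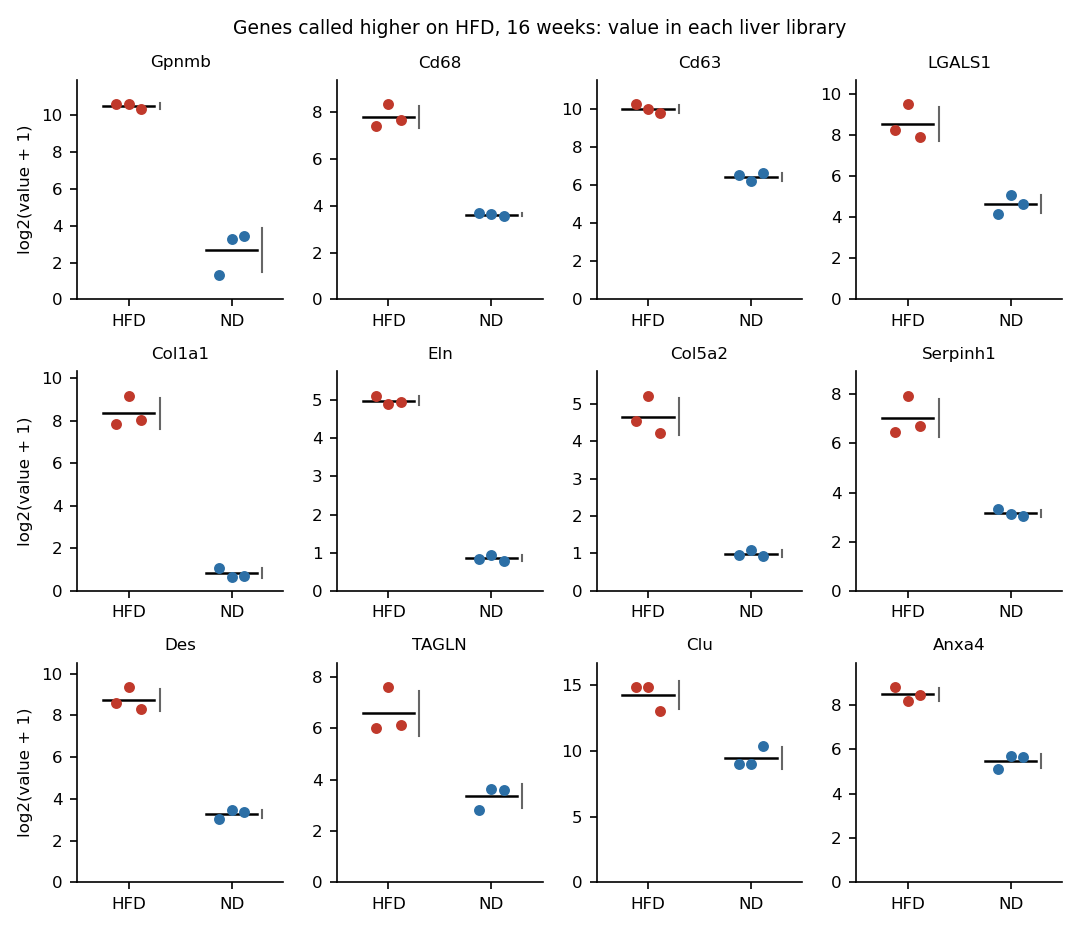
Values of 12 genes called higher on HFD, as log2(value + 1) on the y axis, in the 3 HFD libraries (red, left) and the 3 ND libraries (blue, right); the line is the mean and the grey bar its SD (n = 3). No HFD library overlaps an ND library in any panel.

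Stellate cell and cytoskeleton genes were higher as well. Des (TRINITY_DN35435_c0_g1), desmin, the filament protein of stellate cells, had 391, 646 and 312 in the HFD libraries and 7.25, 9.89 and 9.19 in the ND libraries (log2 fold change 5.47, SE 0.28, adjusted p = 0.000131 by limma). Vimentin, listed under the name vim1, had 716, 1073 and 610.2 in the HFD libraries and 13.8, 20.8 and 21.4 in the ND libraries (log2 fold change 5.33, SE 0.27, adjusted p = 0.000131 by limma). For both genes every HFD library was far above every ND library, and HFD 2 was highest. Of 9 stellate and myofibroblast genes 8 rose and none fell, with a median of 3.39. They included TAGLN, an actin-binding protein of smooth muscle and myofibroblasts (63.7, 191 and 69.2 in the HFD libraries and 5.98, 11.5 and 11.1 in the ND libraries), the surface protein Thy1 (3.61), the actin cross-linker Flna (3.68) and an actin listed as ACTG2 (3.39). Nes, the filament nestin, was detected in the HFD libraries alone. Reln, which resting stellate cells also make, did not pass, with 22.8, 20.6 and 17.6 in the HFD libraries and 12.3, 16.9 and 13.8 in the ND libraries and a log2 fold change of 0.48 (95% interval 0.06 to 0.90), but was called higher after rescaling (limma adjusted p = 0.02) and with a mean of at least 5 (0.048). Summed over the 7 stellate markers in the table, values were 729 to 1630 in HFD libraries and 35.7 to 49.4 in ND libraries.

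Of 9 genes of actin and tubulin 7 rose and 1 fell, with a median of 2.95. TUBB2B, a beta-tubulin, had 301, 414 and 229 in the HFD libraries and 12.6, 4.73 and 9.46 in the ND libraries (log2 fold change 5.04, SE 0.36, adjusted p = 0.000403 by limma), and its relative Tubb6 rose by 2.82 on the log2 scale. The 2 tubulins come from 1 assembled cluster and may share reads. Ezr, which ties actin to the membrane, had 54, 55.1 and 40.7 in the HFD libraries and 1.52, 1.45 and 1.87 in the ND libraries (log2 fold change 4.27, SE 0.18, adjusted p = 0.000131 by limma). The related gene RDX moved the other way, with 20.3, 15.5 and 18.9 in the HFD libraries and 28.9, 34.7 and 28.2 in the ND libraries (log2 -0.72), a call lost without ND 2 (limma adjusted p = 0.053), without the variance trend and after rescaling. Marcksl1 and ARPC5, further actin regulators, rose by 3.02 and 1.83. Ckb (TRINITY_DN31572_c0_g1), the brain-type creatine kinase, had 322, 391 and 292 in the HFD libraries and 2.05, 5.7 and 5.24 in the ND libraries (log2 fold change 6.05, SE 0.31, adjusted p = 0.000131 by limma). Pmp22, a membrane protein of myelin, and the prion protein PRNP were also among the 15 largest rises, with log2 fold changes of 4.33 and 4.55.

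Genes of lipid-associated macrophages were mostly higher. Gpnmb (TRINITY_DN35089_c2_g2), a glycoprotein of lipid-laden macrophages, had 1522, 1522 and 1263 in the HFD libraries and 1.48, 8.73 and 9.8 in the ND libraries (log2 fold change 7.81, SE 0.54, adjusted p = 0.000369 by limma). Cd68, the lysosomal membrane marker of macrophages, had 168, 318 and 200.5 in the HFD libraries and 11.7, 11.6 and 10.7 in the ND libraries (log2 fold change 4.17, SE 0.24, adjusted p = 0.000223 by limma). In both genes the groups were far apart, and Gpnmb varied little between HFD libraries. Of 11 lipid-associated macrophage genes 8 rose, 1 fell and 2 did not pass, with a median of 2.75. The rises included Itgax, the CD11c integrin (30.2, 29 and 31.7 in the HFD libraries and 0.667, 1.34 and 0.95 in the ND libraries), Cd63, a tetraspanin of lysosomes (1189, 991 and 875 in the HFD libraries and 89.6, 71.8 and 95.9 in the ND libraries), and the lectin LGALS1 (3.93). Lgals3, the macrophage lectin galectin-3, had 78.7, 215 and 0 in the HFD libraries and 1.59, 7.65 and 5.55 in the ND libraries, so it was high in HFD 1 and 2 and not detected in HFD 3, and did not pass (limma adjusted p = 0.353). Fabp5, a fatty acid binding protein, was the member that fell: it was not detected in any HFD library and had 1.15, 9.37 and 11.5 in the ND libraries, a call lost without any 1 of the libraries HFD 1, HFD 2, HFD 3, ND 2 and ND 3 (limma adjusted p of 0.0534 to 0.0641).

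None of the 4 tested genes of resident macrophages rose. Cd5l (TRINITY_DN31636_c0_g1), a protein that Kupffer cells secrete, had 0.0356, 0.141 and 1.89 in the HFD libraries and 22.2, 26.7 and 11.4 in the ND libraries (log2 fold change -3.73, SE 0.48, adjusted p = 0.00209 by limma), with every ND library far above every HFD library. C1qc, a chain of complement C1q, was not detected in any HFD library and was at 0.0733, 2.89 and 4.04 in ND, the first of which is not detected. FOLR2 and Stab1, a folate receptor and a scavenger receptor of tissue macrophages, did not pass (log2 -1.70, detected in 5 libraries, and 0.49). Stab1 had 12, 60.8 and 14.1 in the HFD libraries and 19.2, 12.6 and 14.9 in the ND libraries, with 1 high library, HFD 2. Without ND 1, 3 of the 4 were called lower. Summed over the markers in the table, lipid-associated macrophage values were 1500 to 2090 in HFD and 16.7 to 38.7 in ND libraries, and resident macrophage values 16 to 60.9 in HFD and 30.3 to 42.2 in ND libraries. Gpnmb made up most of the lipid-associated sum in each HFD library.

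Several leukocyte genes of the myeloid line were higher. Cd53, a leukocyte tetraspanin, had 37.8, 72 and 46.9 in the HFD libraries and 1.94, 2.64 and 2.05 in the ND libraries (log2 fold change 4.01, SE 0.25, adjusted p = 0.000283 by limma). Of 20 leukocyte genes 8 rose, 2 fell and 10 did not pass, and without HFD 1 the rises numbered 13. Those that rose included Cd83 of activated dendritic cells (3.86), the phagosome metal transporter Slc11a1 (3.36) and Ncf1 and Cyba of the phagocyte oxidase (3.54 and 2.77). The adaptor Blnk (2.74), from the B and plasma cell part of the list, rose too. Of 7 unigenes of the C-type lectin family 4 rose, 1 fell and 2 did not pass. The rises included Clec4e, Clec4d and Clec4a, receptors of myeloid cells. Clec4d was detected in the HFD libraries alone (10.4, 10.8 and 21.2). IL7R, the interleukin 7 receptor of lymphocytes, and the killer cell protein PRF1 were detected in the ND libraries alone. IL7R had 4.56, 2.57 and 2.62 there, and PRF1 was not called with a replicate block or with values summed by name. Beyond the rule for named genes and chosen after their values were seen, CSF2RA, a receptor chain for GM-CSF, had 59.1, 78.3 and 59.2 in the HFD libraries and 4.59, 3.45 and 4.11 in the ND libraries (log2 fold change 3.71, SE 0.18, adjusted p = 0.000131 by limma), and Irf5, a transcription factor of inflammatory macrophages, and Ucp2, a mitochondrial carrier of macrophages and other cells, rose by 2.92 and 3.89 on the log2 scale. Hba, an erythroid marker, had 1862, 4489 and 693 in the HFD libraries and 445, 516 and 487 in the ND libraries and did not pass (limma adjusted p = 0.0567), but was called higher without HFD 3 (limma adjusted p = 0.0143), after rescaling (0.0395), with a mean of at least 5 (0.041) and with detection in all 6 libraries required (0.0471). S100a8, the neutrophil marker in the table, had 2.84, 18 and 16 in the HFD libraries and 1.97, 7.59 and 1.19 in the ND libraries and did not pass either (adjusted p = 0.147).

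Most lysosome genes were higher; the list shares Cd63, Cd68, Ctsz and Hexa with that of lipid-associated macrophages. Of 17 genes 11 rose, 1 fell and 5 did not pass, with a median of 1.26. Psap, the precursor of the saposins that help degrade sphingolipids, had 823, 1134 and 1134 in the HFD libraries and 125, 128 and 131 in the ND libraries (log2 fold change 2.98, SE 0.23, adjusted p = 0.00048 by limma). NAGLU, an enzyme of heparan sulfate breakdown, had 42.8, 46.6 and 47.5 in the HFD libraries and 9.36, 8.14 and 9.94 in the ND libraries (log2 fold change 2.20, SE 0.14, adjusted p = 0.000296 by limma). The groups did not overlap in either gene. Grn (progranulin), Atp6ap1 of the proton pump, Ctsa and the lysosomal transcription factor Tfe3 rose by 1.44, 1.34, 1.26 and 1.14 on the log2 scale. The protease gene Ctsf fell, with 34.7, 24 and 33.5 in the HFD libraries and 77.5, 67.4 and 71.8 in the ND libraries (log2 -1.22). Lamp1, the main lysosomal membrane protein, did not pass, with 338, 363 and 249 in the HFD libraries and 267, 251 and 263 in the ND libraries and a log2 fold change of 0.26 (95% interval -0.26 to 0.79).

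All 7 tested genes of the bile duct and progenitor list rose, although the classic keratin markers were not among them. Clu (TRINITY_DN31125_c0_g1), the secreted chaperone clusterin, had 28764, 28764 and 8090.0 in the HFD libraries and 496, 504 and 1335 in the ND libraries (log2 fold change 4.76, SE 0.80, adjusted p = 0.00497 by limma). It held the highest value in HFD 1 and 2, where ALB had 8090.0 and 5759.6, whereas ALB held the highest value in HFD 3 and in every ND library. ALB did not pass (limma adjusted p = 0.468). Anxa4, a calcium-binding protein of duct epithelium, had 439.9, 292 and 349 in the HFD libraries and 33.2, 50 and 49.2 in the ND libraries (log2 fold change 3.00, SE 0.24, adjusted p = 0.00054 by limma). St14, an epithelial membrane protease detected in 3 HFD libraries and 1 ND library, Elf3, an epithelial transcription factor, Lamb3, a laminin chain, and the anion exchanger Slc4a2 rose by 3.13, 2.07, 1.64 and 0.88 on the log2 scale. PKHD1, the only cholangiocyte marker of 9 in the table, had 7.06, 2.49 and 5.9 in the HFD libraries and 1.75, 1.9 and 0.846 in the ND libraries. Its call (log2 1.24) was lost without any 1 of the libraries other than HFD 2 (limma adjusted p of 0.0679 to 0.117). With a mean of at least 5 as the filter, 4 members were tested and all 4 rose. Notch2, Notch3 and Notch4, receptors of the pathway that forms bile ducts, were the tested receptors of that family, and all 3 rose, with log2 fold changes of 0.91, 1.12 and 1.43; the call of Notch3 was lost without HFD 2, ND 2 or ND 3 (adjusted p of 0.0543 to 0.0798).

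Secreted factors included some of the largest differences. Igfbp2 (TRINITY_DN34830_c0_g2), a binding protein for insulin-like growth factors, had 1073, 381 and 945 in the HFD libraries and 39.6, 4.13 and 13.6 in the ND libraries (log2 fold change 5.65, SE 0.75, adjusted p = 0.00237 by limma). Ccl21a, a chemokine of lymph vessels and lymphoid tissue, had 200.5, 222 and 172 in the HFD libraries and 4.08, 4.15 and 5.77 in the ND libraries (log2 fold change 5.14, SE 0.18, adjusted p = 6.78e-05 by limma). Both were far apart between diets, with Igfbp2 lowest in HFD 2 among the HFD libraries. Of 9 chemokine and cytokine genes 4 rose and none fell, among them Ccl6 (detected in the HFD libraries alone) and Il34. Ptx3, a pentraxin of innate defence, had 16.5, 25.7 and 18.6 in the HFD libraries and 0.0733, 0.04 and 1.19 in the ND libraries and was detected in 1 ND library. Htra4, a serine protease, was the largest rise among genes not detected in every library, with 26.4, 44.5 and 39.9 in HFD libraries and none detected in ND. Among the 6 largest of these, by log2 fold change, were also S100A2, a calcium-binding protein of epithelia (4.39, detected in 1 ND library), Ptx3 (3.96), Nbl1, an antagonist of bone morphogenetic proteins (3.84, in 2), and TRIM47, a ubiquitin ligase (3.73, in 1). Hgf, the hepatocyte growth factor that stellate cells make, rose to 7.41, 5.35 and 4.76 in HFD libraries, against 1.74, 2.7 and 1.95 in ND libraries.

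Drug-metabolising genes of hepatocytes were lower on HFD. Cyp2a3 (TRINITY_DN36280_c1_g1), a cytochrome P450, had 25, 4.45 and 38.4 in the HFD libraries and 1263, 991 and 1263 in the ND libraries (log2 fold change -6.04, SE 0.68, adjusted p = 0.00138 by limma). Cyp3a11, a main drug-oxidising P450, had 239.7, 154 and 304 in the HFD libraries and 2138, 1522 and 1862 in the ND libraries (log2 fold change -3.02, SE 0.34, adjusted p = 0.00142 by limma). Nr1i3 (TRINITY_DN35629_c2_g2), the nuclear receptor CAR that switches on such genes, had 13.5, 7.3 and 25.4 in the HFD libraries and 298, 229 and 237 in the ND libraries (log2 fold change -4.11, SE 0.40, adjusted p = 0.000931 by limma). No HFD library reached the lowest ND library in any of the 3 genes, and HFD 2 was lowest in each. Of 15 xenobiotic genes 11 fell and none rose, with a median of -2.46. The 11 also held Cyp1a2 (-3.89), the carboxylesterase Ces1d (-3.22), Cyp2f2 (-2.53) and the glutathione transferase Gstt1 (-1.93). Those that did not pass lay between -0.10 and 0.48. Copies within these families can share reads in an assembly, so the copy is uncertain for P450, carboxylesterase, aldo-keto reductase and macroglobulin names.

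Over the whole cytochrome P450 family 26 unigenes were tested, of which 19 fell, 1 rose and 6 did not pass, with a median of -2.45. In 18 of the 19 the lowest HFD value was that of HFD 2. The other Cyp2a3 unigenes had log2 fold changes of -4.76 and -3.59. Cyp2d3 had 197, 72.7 and 204 in the HFD libraries and 1073, 842 and 1073 in the ND libraries and, in its other unigene, 166, 51.9 and 185 in the HFD libraries and 588, 588 and 464 in the ND libraries. Cyp2d4, Cyp4f4 and Cyp2j6 fell by 3.08, 3.06 and 1.86 on the log2 scale. The unigene that rose is 1 of 3 named Cyp4f5, with 5.6, 5.3 and 5.84 in the HFD libraries and 1.45, 3.29 and 2.1 in the ND libraries, while the most abundant of the 3 had 9.4, 5.07 and 13.1 in the HFD libraries and 90.7, 59.7 and 63.7 in the ND libraries.

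Other detoxifying families showed the same direction. Of 6 genes of alcohol and aldehyde oxidation 5 fell, and Akr1b1, the aldose reductase, rose (54.5, 68.4 and 49.4 in the HFD libraries and 23.8, 24.2 and 26.9 in the ND libraries; log2 1.16). After rescaling, or without any 1 of HFD 1, HFD 2, ND 1, ND 2 and ND 3, 4 fell. Adh1 had 163, 56 and 269.7 in the HFD libraries and 945, 1134 and 945 in the ND libraries (log2 fold change -2.88, SE 0.54, adjusted p = 0.00712 by limma). Adh6, of the same family but outside this list, had 27.2, 11.7 and 45.1 in the HFD libraries and 322, 273 and 267 in the ND libraries (log2 fold change -3.49, SE 0.43, adjusted p = 0.00189 by limma). Aldh3a2 and Aldh7a1, which oxidise fatty and amino acid aldehydes, fell by 1.82 and 1.80. Of 5 carboxylesterase unigenes 4 fell, and the fifth, a unigene named Ces2e, had 36.9, 13.8 and 45.8 in the HFD libraries and 29.6, 9.25 and 28.9 in the ND libraries and did not pass. Akr1c21 and AKR1C23, steroid-handling reductases, fell by 3.24 and 3.21, and Hsd3b and Hsd3b2, of steroid synthesis and breakdown, by 3.65 and 3.56. Sult1e1, the oestrogen sulfotransferase, had 63, 26.7 and 95.3 in the HFD libraries and 398, 398 and 328 in the ND libraries (log2 fold change -2.75, SE 0.43, adjusted p = 0.004 by limma). UGT2B31, a glucuronidating enzyme, fell by 2.20. Acsm1, a mitochondrial acyl-CoA synthetase used in glycine conjugation, had 17.6, 9.58 and 30.4 in the HFD libraries and 239.7, 226 and 232 in the ND libraries (log2 fold change -3.67, SE 0.37, adjusted p = 0.00105 by limma), and Glyat, which completes that conjugation and was chosen after its values were seen, had 8.23, 2.49 and 9.95 in the HFD libraries and 78.7, 76.2 and 62.5 in the ND libraries (log2 -3.37).

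**Figure D3:**
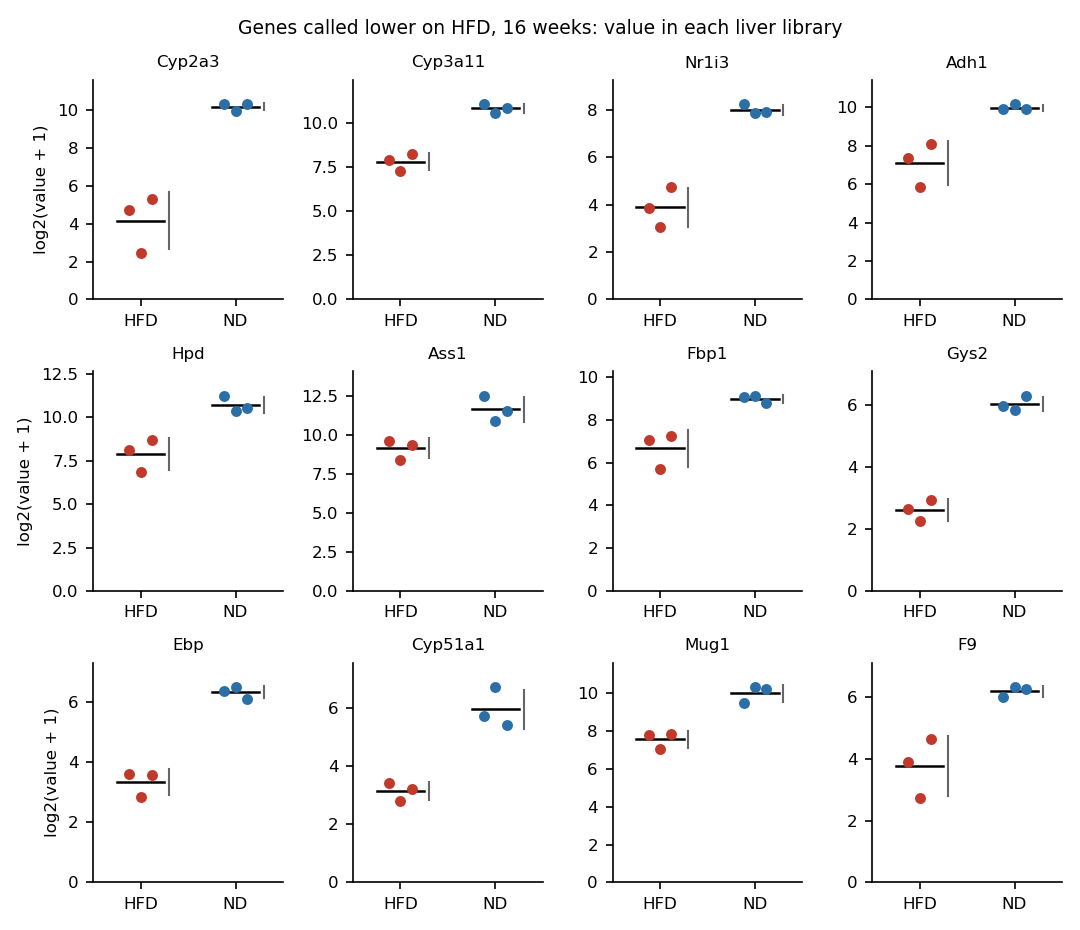
Values of 12 genes called lower on HFD, as log2(value + 1) on the y axis, in the 3 HFD libraries (red, left) and the 3 ND libraries (blue, right); the line is the mean and the grey bar its SD (n = 3). The middle HFD point of each panel, HFD 2, is the lowest of the 3 in all 12 genes.

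Most genes of amino acid breakdown and the urea cycle were lower. Of 22 genes 15 fell, 1 rose and 6 did not pass, with a median of -1.68. Without ND 1 or without ND 3, 12 fell. Abat (TRINITY_DN31858_c0_g3), which breaks down the transmitter GABA, had 2.52, 0.864 and 3.79 in the HFD libraries and 46.6, 43.3 and 38.1 in the ND libraries (log2 fold change -3.79, SE 0.34, adjusted p = 0.000744 by limma). Hpd, of tyrosine breakdown, had 273, 115 and 407 in the HFD libraries and 2423, 1335 and 1522 in the ND libraries (log2 fold change -2.86, SE 0.51, adjusted p = 0.00601 by limma). Ass1, which joins citrulline and aspartate in the urea cycle, had 792, 338 and 646 in the HFD libraries and 5759.6, 1862 and 2911 in the ND libraries (log2 fold change -2.50, SE 0.56, adjusted p = 0.0135 by limma). The groups did not overlap in any of these. Cps1, the first enzyme of the urea cycle, had 496, 212 and 474 in the HFD libraries and 911, 945 and 731 in the ND libraries (log2 -1.22), a call lost without any 1 of the 6 libraries (limma adjusted p of 0.0539 to 0.121). Single enzymes that fell included Amdhd1 of histidine breakdown (-3.11), Kmo and Afmid of the kynurenine pathway (-2.76 and -1.73), Mat1a, the methionine adenosyltransferase of adult liver (-2.18), and Cth and Cdo1 of cysteine synthesis and breakdown (-2.08 and -1.96). Csad, which makes taurine from cysteine products, was the member that rose, with 38.9, 28.4 and 38.1 in the HFD libraries and 8.24, 10.9 and 11.1 in the ND libraries (log2 fold change 1.70, SE 0.19, adjusted p = 0.00142 by limma). Tat, which starts tyrosine breakdown, did not pass (log2 -1.33, limma adjusted p = 0.106). Dmgdh, of choline breakdown and chosen after its values were seen, had 18.1, 8.54 and 26.4 in the HFD libraries and 138, 129 and 147 in the ND libraries (log2 -3.02).

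Several glucose genes of the liver type were lower and the pyruvate kinase of non-hepatic cells was higher. Gys2 (TRINITY_DN35569_c2_g1), the liver glycogen synthase, had 5.27, 3.76 and 6.65 in the HFD libraries and 60.8, 56.5 and 76.9 in the ND libraries (log2 fold change -3.41, SE 0.22, adjusted p = 0.000288 by limma). The glucose transporter Slc2a2 had 3.3, 0.738 and 3.37 in the HFD libraries and 9.7, 20.3 and 17.5 in the ND libraries and Fbp1, of gluconeogenesis, 131, 50.6 and 152 in the HFD libraries and 544, 557 and 439.9 in the ND libraries; both fell, by 2.34 and 2.33 on the log2 scale. PKM had 119, 229 and 110.2 in the HFD libraries and 7.39, 10.9 and 11.6 in the ND libraries (log2 fold change 3.75, SE 0.31, adjusted p = 0.000618 by limma). Of 12 genes 5 fell, 2 rose and 5 did not pass. Their median was -0.28, but -1.02 without HFD 1, -0.06 without HFD 2, -0.46 without HFD 3 and -0.02 after rescaling; 1 gene rose in place of 2 without any 1 of the HFD libraries, ND 2 or ND 3. The other rise, Pgam1, was lost without any 1 of HFD 1, HFD 2, HFD 3, ND 2 and ND 3 (adjusted p of 0.0585 to 0.122), and after rescaling 4 members rose. LDHA, the lactate dehydrogenase, did not pass, with 375, 298 and 487 in the HFD libraries and 232, 344 and 398 in the ND libraries.

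All 3 tested genes of sterol synthesis, from a list of 24, were lower. Ebp, the sterol isomerase, had 11, 6.17 and 10.8 in the HFD libraries and 81.5, 88.5 and 67.4 in the ND libraries (log2 fold change -2.99, SE 0.24, adjusted p = 0.00054 by limma), Cyp51a1, the lanosterol demethylase, had 9.79, 5.94 and 8.36 in the HFD libraries and 53, 105 and 42.6 in the ND libraries, and Lss, the lanosterol synthase, had 2.21, 1.88 and 1.93 in the HFD libraries and 13, 23.9 and 8.07 in the ND libraries. HFD 2 was the lowest HFD library and ND 2 the highest ND library in all 3. Soat2, which esterifies cholesterol in hepatocytes, had 5.52, 2.73 and 5.95 in the HFD libraries and 16.3, 13.6 and 11.5 in the ND libraries (log2 -1.41), and LRP1, an uptake receptor, had 363, 464 and 338 in the HFD libraries and 140.5, 125 and 168 in the ND libraries (log2 1.42). Insig1, which holds the sterol sensor in the endoplasmic reticulum, did not pass, with 40.8, 34.7 and 34.1 in the HFD libraries and 42.7, 56 and 41.6 in the ND libraries and a log2 fold change of -0.34 (95% interval -0.75 to 0.07). Slc27a2, which activates bile acids and fatty acids, had 49.9, 31.1 and 113 in the HFD libraries and 249, 249 and 304 in the ND libraries (log2 -2.23), 1 of 3 falls among 5 bile acid genes; without ND 2 this was the only call left of the 3.

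Fatty acid genes did not move as 1 group. Of 6 genes of fatty acid and triglyceride synthesis 3 fell and 1 rose. Mlxipl, the sugar-sensing factor ChREBP, had 6.5, 3.37 and 10.8 in the HFD libraries and 27.1, 40.1 and 24.3 in the ND libraries (log2 fold change -2.08, SE 0.38, adjusted p = 0.00626 by limma), and Gpam, of glycerolipid synthesis, had 3.2, 2.38 and 3.78 in the HFD libraries and 11.4, 12.4 and 8.64 in the ND libraries (log2 -1.52). ACACB was the rise, detected in the HFD libraries alone (6.92, 2.6 and 9.16). Fasn, the fatty acid synthase, had 19.3, 23.2 and 28 in the HFD libraries and 29.1, 31.8 and 11 in the ND libraries, with overlapping groups and a log2 fold change of 0.09 (95% interval -0.83 to 1.01), a width that leaves changes in either direction possible. Of 8 genes of fatty acid oxidation and ketogenesis 3 fell and none rose, among them Acsm1 and Decr2 (-1.90). Of 4 genes of lipid uptake and carriers 2 rose, 1 fell (Fabp5) and 1 did not pass. The rises were Vldlr, a receptor for triglyceride-rich particles (3.56, 4.48 and 2.79 in the HFD libraries and 0.547, 0.541 and 0.527 in the ND libraries), and the fatty acid transporter Slc27a1 (22.3, 29.8 and 24.6 in the HFD libraries and 7.45, 5.48 and 7.35 in the ND libraries). Acot12, a cytosolic acetyl-CoA hydrolase chosen after its values were seen, had 13, 6.23 and 15.8 in the HFD libraries and 91.8, 81.1 and 136 in the ND libraries (log2 -3.08). Apob had 194, 59 and 178 in the HFD libraries and 103, 134 and 134 in the ND libraries and did not pass (95% interval -1.01 to 1.10), and SAR1B, which carries large lipoproteins out of the endoplasmic reticulum, fell (27.7, 19.6 and 36.3 in the HFD libraries and 100.4, 86.5 and 87.5 in the ND libraries; log2 -1.72).

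Among plasma proteins, protease inhibitors of the macroglobulin family were lower and most others did not pass. Of 9 macroglobulin unigenes 7 fell and none rose, with a median of -3.20. Mug1, a murinoglobulin, had 222, 130.2 and 226 in the HFD libraries and 716, 1263 and 1189 in the ND libraries in its most abundant unigene, and A1i3 had 12.1, 0.509 and 1.1 in the HFD libraries and 42.9, 108 and 105 in the ND libraries (log2 fold change -4.53, SE 0.81, adjusted p = 0.00603 by limma). Mug2 fell by 3.71. The clotting factor F9 had 14, 5.64 and 24.2 in the HFD libraries and 62.5, 78.7 and 75.5 in the ND libraries (log2 fold change -2.42, SE 0.45, adjusted p = 0.0067 by limma), and Klkb1 (prekallikrein) and F7 fell by 2.53 and 1.92; with C8b and Serpind1 they were 5 falls among 12 complement and coagulation genes, 3 without ND 2 or without ND 3. Of 12 hepatocyte identity genes 1 fell, the nuclear receptor partner Rxra (27, 19.5 and 32 in the HFD libraries and 52.5, 45.1 and 53.4 in the ND libraries), and 11 did not pass; without HFD 1 or without HFD 3 there were 2 falls, as under several other settings. Fgg, a fibrinogen chain, had 2911, 1263 and 2911 in the HFD libraries and 1134, 5759.6 and 8090.0 in the ND libraries, so the groups overlapped. Ambp, hpx (haemopexin), AHSG and Apoa2 were detected in HFD 1 alone, where Ambp had 42.7 and hpx 40.2. These names stand for abundant plasma proteins of liver, and their values rest on 1 library.

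Leap2, Klb and Sult1e1 fell among the hormone-related genes. Leap2 (TRINITY_DN25257_c0_g1), a liver peptide that opposes ghrelin, had 5.73, 0.509 and 4.88 in the HFD libraries and 101, 172 and 38.2 in the ND libraries (log2 fold change -4.50, SE 0.71, adjusted p = 0.00411 by limma). Klb, the co-receptor for FGF21 and FGF19, had 0.269, 0.0889 and 0.387 in the HFD libraries and 4.54, 3.53 and 5.02 in the ND libraries (log2 fold change -2.10, SE 0.27, adjusted p = 0.00221 by limma). Of 12 genes 3 fell and 2 rose, Igfbp2 and Hgf, and Igfbp1, a fasting-induced binding protein, did not pass with 658, 286 and 358 in the HFD libraries and 246, 94 and 504 in the ND libraries. These counts lie near the shares over all gene names, 20.9% lower and 25.8% higher. The clock genes Per2 and Per3 fell, by 1.07 and 1.67 on the log2 scale, and the other 4 tested clock genes did not pass; the hour of sampling was not stated. Further members of the 15 largest falls were APOL3 (-3.51), an apolipoprotein L, and Asz1 (-3.62), a germ cell gene that was at 0.0594, 0.0597 and 0.0894 in HFD libraries and 9.96, 27.6 and 6.17 in ND libraries.

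Several stress genes were higher. Hmox1, which breaks down haem, had 71.6, 134 and 87.5 in the HFD libraries and 16.2, 24.6 and 24 in the ND libraries (log2 fold change 2.10, SE 0.28, adjusted p = 0.00225 by limma). Sqstm1, the autophagy receptor p62, had 445, 716 and 504 in the HFD libraries and 107, 79.6 and 96.5 in the ND libraries (log2 fold change 2.52, SE 0.25, adjusted p = 0.001 by limma), and SRXN1, which restores peroxiredoxins, rose to 18.5, 27.9 and 16.3 in HFD libraries, against 7.54, 5.63 and 6.6 in ND libraries. In the antioxidant list 4 rose and 2 fell of 7, the falls being TXN, detected in HFD 1 and the ND libraries, and Cat (catalase), whose call was lost without HFD 1, HFD 2, ND 1 or ND 2 (adjusted p of 0.101 to 0.119). Of 12 genes of protein folding in the endoplasmic reticulum 4 rose and 2 fell, near the shares over all gene names, 25.8% higher and 20.9% lower. With HFD 2, HFD 3, ND 2 or ND 3 left out 2 rose and 1 fell, as with a replicate block. The chaperone Calr had 358, 335 and 328 in the HFD libraries and 130.2, 147 and 178 in the ND libraries (log2 fold change 1.17, SE 0.20, adjusted p = 0.00509 by limma), and Ppp1r15a, which ends the stress-induced stop of translation, rose to 29, 49.9 and 27.9 in HFD libraries, against 11.6, 10.9 and 12.1 in ND libraries; the stress sensor Atf6 fell, with 4.2, 3.8 and 4.8 in the HFD libraries and 10.6, 13.1 and 7.54 in the ND libraries (log2 -1.09). The other pair of rises, Atf4 and Pdia4, was lost without any 1 of HFD 1, HFD 2, HFD 3, ND 2 and ND 3 (adjusted p of 0.0589 to 0.13). Cell cycle genes went both ways: of 10 tested 3 rose, 3 fell and 4 did not pass, with a median of 0.23. These counts too lie near the shares over all gene names. Mki67, a marker of dividing cells, had 3.89, 4.44 and 4.19 in the HFD libraries and 0.614, 0.626 and 0.532 in the ND libraries, and Ccnd3, a G1 cyclin, rose by 1.07, whereas CDK1 was detected in HFD 1 and the ND libraries and fell (log2 -1.57). MCM7, with the same detection as CDK1, and TOP2A, detected in the ND libraries alone, fell as well.

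Respiratory chain genes fell in part, and many of them were low unigenes with uneven detection. Of 26 genes 19 fell and none rose, with a median of -1.31. Among the 13 detected in all 6 libraries 8 fell and 5 did not pass, with a median of -1.16. Ndufs6, a subunit of complex I, had 40.4, 35.1 and 37.2 in the HFD libraries and 163, 126 and 116 in the ND libraries (log2 fold change -1.81, SE 0.18, adjusted p = 0.00101 by limma), and Ndufb5, of the same complex, had 27.7, 23.6 and 29.6 in the HFD libraries and 105, 80.7 and 80.3 in the ND libraries (log2 fold change -1.67, SE 0.17, adjusted p = 0.00119 by limma). Cox7c of complex IV and ATP5G1 of the ATP synthase fell by 1.41 and 1.31. Atp5a1, a main subunit of the synthase, had 174, 103 and 140.5 in the HFD libraries and 212, 189 and 194 in the ND libraries and did not pass. The remaining falls were in unigenes detected in ND and in at most HFD 1, such as COX6C with 0.231, 0 and 0 in the HFD libraries and 5.05, 4.1 and 2.54 in the ND libraries and COX7A2, which no HFD library had. Without HFD 2, 14 genes fell. Proteasome genes showed 3 falls of 6, among them PSMB4 (86.9, 76.2 and 83.4 in the HFD libraries and 185, 131 and 166 in the ND libraries; log2 -0.95).

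Ribosomal protein genes went both ways and were unevenly detected. Of 43 unigenes, 1 per name, 7 rose, 11 fell and 25 did not pass, where 25.8% of all gene names rose and 20.9% fell. The 15 detected in all 6 libraries held all 7 rises and no fall, among them RPLP0, with 1263, 1031 and 991 in the HFD libraries and 295, 269.7 and 218 in the ND libraries (log2 fold change 2.07, SE 0.26, adjusted p = 0.002 by limma), RPS7 (1.62) and Rpl4 (1.33). Further unigenes named RPS4X and RPL9, also detected in all 6 libraries, fell: that of RPS4X had 8.89, 13.2 and 10.8 in the HFD libraries and 23.7, 14.5 and 17.2 in the ND libraries and that of RPL9 1.75, 1.62 and 0.967 in the HFD libraries and 15, 5.78 and 6.98 in the ND libraries. None of the 11 falls was detected in HFD 2; 7 were in ND libraries alone, such as RPS28 (9.79, 2.93 and 8.81), 3 in ND and HFD 1, and RPL27AC in ND and HFD 3. RPL38, PPIA, TIC32, 10HGO and RBG7 were among the 6 largest falls of unigenes with incomplete detection. Another 12 were detected in HFD 2 and 3 alone and 3 in HFD 1 alone, and none of these passed with all libraries. Without HFD 1, 18 ribosomal unigenes rose. In that fit the unigenes of HFD 2 and 3 alone are detected in every HFD library left and in no ND library. Their calls there are descriptions. With a replicate block, without ND 2 or without ND 3 the rises numbered 4. Names such as RPS19C, RPL35AA, TIC32, 10HGO and RBG7 are not in the gerbil annotation.

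**Figure D4:**
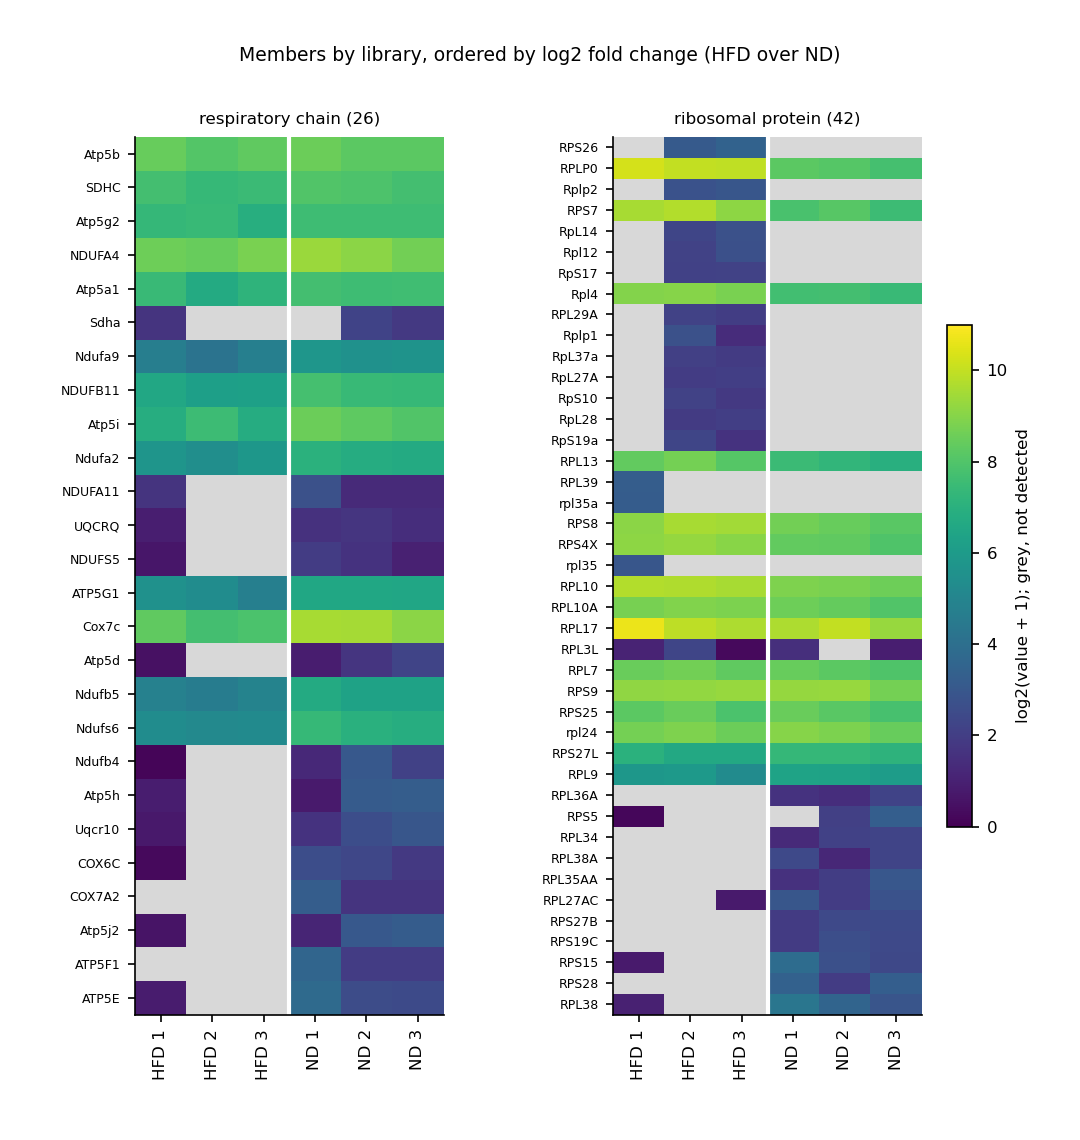
Tested members of the respiratory chain list (26) and the ribosomal protein list (42 of 43), 1 row per gene ordered by log2 fold change, in HFD libraries (left) and ND libraries (right); colour is log2(value + 1) and grey means not detected. The grey cells form blocks that follow HFD 2 and 3, HFD 1 or ND, and 13 respiratory chain and 15 ribosomal genes have none.

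Unigenes of 1 name did not always move together. Of 208 names with at least 2 unigenes tested, 43 had several calls in 1 direction alone and 18 had calls in both. Leaving out the retroelement names Pol, env and gag, 15 names had both; in 11 of them the falling unigene was detected in at most 1 HFD library, and in 13 it had the lower mean. Cd63 is an example: beside the rise given above, another unigene of the same assembled cluster had 0.0333, 0 and 0 in the HFD libraries and 2, 11 and 11.3 in the ND libraries. PRNP, Cstb and Ctsz likewise had a rising unigene and a falling one. Of 72 unigenes named Pol or pol, after a polyprotein of retroelements, 28 fell, 2 rose and 42 did not pass (median -0.76). Heterogeneous nuclear ribonucleoproteins, which bind RNA in the nucleus, showed 6 rises and 1 fall in 12 unigenes, the rises with log2 fold changes such as 1.27 for HNRNPA1.

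Of 64 unigenes of the solute carrier family, membrane transporters, 16 rose, 16 fell and 32 did not pass, with a median of -0.29. These shares lie near those of all named unigenes, 24.1% higher and 21.7% lower. Among the falls were the organic anion transporter genes Slc22a27 (17.8, 3.19 and 16.1 in the HFD libraries and 50.8, 185 and 119.6 in the ND libraries) and SLC22A9 (-3.10) and the aromatic amino acid carrier Slc16a10 (-2.11). The unigenes of Slc22a27 and SLC22A9 come from 1 assembled cluster and may share reads. The rises included Slc7a7, a cationic amino acid carrier of macrophages and other cells (14.6, 18.4 and 12.7 in the HFD libraries and 3.42, 3.24 and 2.53 in the ND libraries), Slc35e4 (2.14) and Slc34a2, a phosphate carrier of epithelia (1.53). Of 10 ABC transporters 4 fell and 1 rose: Abcd3, of peroxisomes, fell by 1.92, the drug exporter Abcb1b by 1.09, and Abca7, a lipid exporter of phagocytes, rose by 1.59.

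The 3 HFD libraries differed in how far they lay from ND. Of 2262 named unigenes detected in all 6 libraries 46.5% were called, 25.4% higher and 21.1% lower. Among the 574 that rose, HFD 2 was farthest from the ND mean in 344, HFD 1 in 138 and HFD 3 in 92. Among the 478 that fell the counts were 329, 90 and 59. The median difference from the ND mean was 1.27, 1.52 and 1.27 for the rises in HFD 1, 2 and 3, and -1.31, -1.51 and -1.14 for the falls. In the xenobiotic list HFD 2 was farthest in 10 of the 11 called genes, in the amino acid list in 14 of 16 and in the collagen list in 7 of 8, but in the lipid-associated macrophage list in 4 of 8 and in the lysosome list in 7 of 12. These unigenes were chosen by the comparison itself, so the counts describe the libraries and test nothing.

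**Figure D5:**
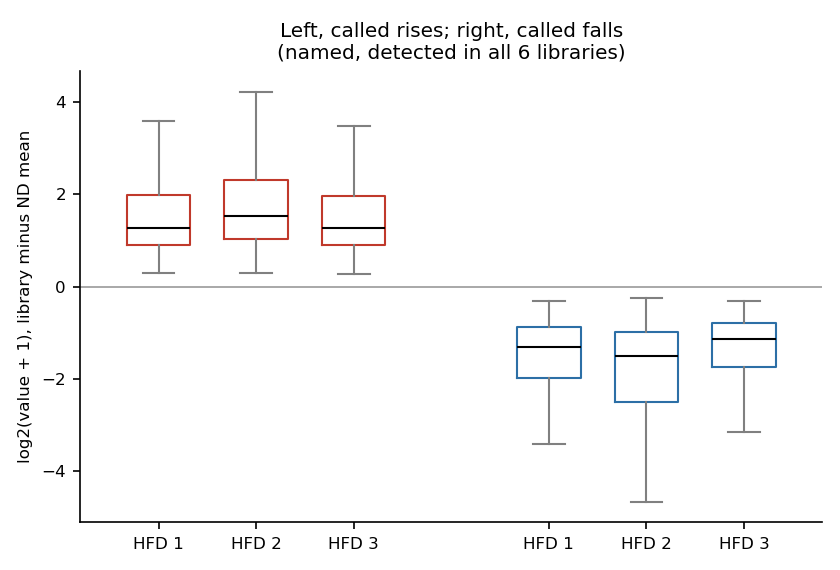
Difference of each HFD library from the mean of the ND libraries in log2(value + 1) (y axis), for named unigenes detected in all 6 libraries that were called higher (left, 574) or lower (right, 478); boxes hold the middle part of the unigenes, lines the medians, and whiskers reach to 1.5 box heights. HFD 2 has the median farthest from 0 on both sides, 1.52 and -1.51.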

How the data were processed

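Poly(A) RNA of gerbil liver, with RNA integrity numbers above 7, was sequenced as paired reads and assembled with Trinity 2.4.0, per the labels' protocols; Salmon and edgeR are also named, without version or role, per the submitters' processing notes. Each cluster is represented by its longest transcript, the unigene. The authors deposited 1 table with a normalized expression signal per unigene in 18 libraries. Its sorted values differ between libraries by at most 1% over the top 3000 rows, so the signal stands for rank; its abundance unit, the read depth and the annotation source are not given in the sources used here, and no counting interval can be had. Unigenes carry no genome position.

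From these values log2(value + 1) was compared between 3 HFD and 3 ND libraries at 16 weeks for unigenes with a mean of at least 1, with limma 3.58.1 in R 4.3.3 (variance trend, two-sided, Benjamini-Hochberg over all tested, threshold 0.05); the method was tested on simulated data. P-values set the diet difference against the spread between these libraries, moderated over all unigenes tested. Whether the libraries come from separate animals is not stated. Several unigenes of 1 name were represented by that of the highest mean. Genes were named by rule: called with groups not overlapping, the 15 largest rises and falls detected in all 6 libraries, the 6 largest detected in fewer, and tested members of 38 gene lists; family members were added, and a few genes are not reported here. The members and lists were chosen with earlier results of these data known, and the name families after the values were seen. Alternatives were 2 other pseudocounts, 2 other filters on level, a filter on detection, rescaling, summing by name, 3 other variance or weight settings, a replicate block and leaving out each library. The 12 libraries of 4 and 8 weeks were not used.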

Additional observations from a re-analysis of the deposited data

How the results depend on the processing

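The counts of calls moved by over 1.5 times under 2 of the 17 alternatives, each of which tests fewer unigenes. With a mean of at least 5 there were 1106 calls, 548 higher and 558 lower, of which 444 and 407 were named; with detection in all 6 libraries required there were 1948, 821 higher and 1127 lower. Leaving out 1 library at a time gave 2416 to 3126 calls, 1080 to 1537 higher and 1278 to 1589 lower, with 552 to 733 named higher and 483 to 585 named lower. No unigene called in the main comparison changed direction under the alternatives that keep unigenes apart; with values summed by gene name this was not counted over all unigenes. Over all unigenes, part of the main calls was lost when 1 library was left out. Without HFD 1, 2 or 3 in turn, 2601 of 3267, 2293 of 3227 and 2580 of 3279 main calls still tested were kept. Without ND 1, 2 or 3 the counts were 2489 of 3223, 2369 of 3192 and 2339 of 3207. Followed through the alternatives were 220 named genes, 198 of them called, which do not stand for all unigenes. Of the called genes 185 kept call and direction under every alternative that tested them, and 13 lost the call under at least 1. Not every alternative tested each gene: 184 of the 220 remained with a mean of at least 5 and 185 with detection in all 6 libraries required. Of the followed genes that did not pass in the main comparison, 3 changed sign in log2 fold change, and the cause was not tested. Apob was at -0.26 without HFD 1, -0.20 without HFD 3 and -0.08 without ND 1 (range over left-out libraries -0.26 to 0.59). Fasn was at -0.04 without HFD 3 and -0.38 without ND 3 (range -0.38 to 0.35), and Stab1 at -0.22 without HFD 2 (range -0.22 to 0.90). Libraries of the 2 diets share replicate numbers, and the labels do not say whether these mark pairs. Deviations of same-numbered libraries from their group means correlated at 0.00688, -0.0532 and -0.00754, within the range of differently numbered ones (-0.0614 to 0.0719). With so few libraries this cannot decide whether the numbers pair them. With a replicate block 2737 unigenes were called, 1304 higher and 1433 lower. Read depth is unknown, so absence of a unigene from a library cannot be weighed against its depth.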
